A study of Homo sapiens with 36 samples.

Results

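The olfactory receptor (OR) genes of human chromosome 11 were examined in chromatin immunoprecipitation followed by sequencing (ChIP-seq) peak lists from lung cells. They were taken as the protein-coding genes of GENCODE release 44 on chromosome 11 whose symbol is OR followed by a family number, a letter or letters, and a member number, such as OR4A16. The rule found 172 OR genes among the 1317 coding genes of the chromosome, and it used no measured value. The 1145 other coding genes of the chromosome served as the comparison.

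The study profiled A549, a human lung adenocarcinoma cell line, and BEAS-2B (B2B), an immortalised and non-cancerous bronchial epithelial line. There were 36 samples in 18 groups of 2 replicates, of which 4 samples in 2 groups were input chromatin. Both lines were grown in the same medium, no treatment is named in the labels of these samples, and each line is a single established culture line rather than a set of donors. RNA polymerase II (pol II), the histone marks H3K4me3 and H3K27ac, the Mediator subunit Med1 and the AP-1 proteins JunB, Jun and JunD were profiled in both lines, and CTCF and Rad21 in B2B only. Each of the 16 antibody groups came as 1 list of peaks made from its merged replicates, 7 for A549 and 9 for B2B. No spread between replicates could therefore be measured and no test between lines or gene sets was made. The Wilson 95% intervals printed beside shares describe the error of counting alone, and neighbouring genes in a cluster are not independent of each other. The lists held 272 to 3097 peaks on chromosome 11, and the read depth behind them is unknown, so an absent peak means only that nothing passed the caller at that depth.

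Olfactory receptors are G protein-coupled receptors that bind odour molecules at the surface of sensory neurons of the nose. Each such neuron expresses a single OR allele, and in most other cell types OR genes are silent and lie in large clusters of compact chromatin. Class I receptors, the families 51, 52 and 56 here, are clustered around the beta-globin genes, and the remaining families are class II. H3K4me3 marks active or poised promoters, H3K27ac marks active promoters and enhancers, and CTCF and the cohesin subunit Rad21 mark loop anchors and boundaries.

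Sequence at a few OR starts and nearby sites is shown first, because peaks described afterwards fall on it, except at OR4A16. The promoter windows run from 250 bases before to 50 bases after the RefSeq start (GRCh38.p14) on the gene's own strand, with every CpG in capitals. OR52N2, at chr11:5808674-5808973 on the plus strand, is the OR gene with peaks in the most lists within 1 kb of a start, and OR4A16, at chr11:55342951-55343250 on the plus strand, is the OR gene farthest from any peak.
OR52N2 promoter: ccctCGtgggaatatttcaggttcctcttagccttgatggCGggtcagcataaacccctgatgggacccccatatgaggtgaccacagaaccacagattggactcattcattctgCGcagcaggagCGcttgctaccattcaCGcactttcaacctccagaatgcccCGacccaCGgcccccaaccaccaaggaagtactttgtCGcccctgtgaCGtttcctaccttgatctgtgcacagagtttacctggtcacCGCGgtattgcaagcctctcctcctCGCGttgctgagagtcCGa
OR4A16 promoter: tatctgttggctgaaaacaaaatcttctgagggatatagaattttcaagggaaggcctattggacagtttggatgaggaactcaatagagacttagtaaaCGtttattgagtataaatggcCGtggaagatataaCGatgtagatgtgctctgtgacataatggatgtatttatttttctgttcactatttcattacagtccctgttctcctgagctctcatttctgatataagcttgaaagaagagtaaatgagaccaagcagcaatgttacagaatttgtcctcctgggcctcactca
The OR52N2 window holds 14 CpG and the OR4A16 window holds 3.

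The next windows are 101 bases of the plus strand of hg38 centred on a CTCF summit in B2B, with matches to the CTCF core letters CCNNNAGNNGG on either strand in capitals. The core was chosen after the peaks had been seen. They lie at chr11:5808584-5808684, just upstream of OR52N2, and at chr11:4637035-4637135, just upstream of OR51D1.
OR52N2 CTCF summit: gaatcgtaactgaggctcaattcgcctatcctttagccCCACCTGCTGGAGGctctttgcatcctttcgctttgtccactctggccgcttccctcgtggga
OR51D1 CTCF summit: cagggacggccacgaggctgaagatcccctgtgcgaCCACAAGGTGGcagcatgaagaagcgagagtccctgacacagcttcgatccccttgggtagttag
The OR52N2 window has 2 overlapping matches and the OR51D1 window has 1.

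The last windows are 101 bases of the plus strand of hg38 centred on strong Jun summits inside the clusters, with the AP-1 letters TGACTCA or TGAGTCA in capitals. They lie in the HBE1 region at chr11:5280717-5280817, between OR genes near OR5AK2 at chr11:56933003-56933103 and near OR5B3 at chr11:58394327-58394427.
HBE1 region site: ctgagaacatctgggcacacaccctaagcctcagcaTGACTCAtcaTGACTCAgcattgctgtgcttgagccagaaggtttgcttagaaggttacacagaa
OR5AK2 site: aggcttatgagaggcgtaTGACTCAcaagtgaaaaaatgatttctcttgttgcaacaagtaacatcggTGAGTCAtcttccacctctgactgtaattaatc
OR5B3 site: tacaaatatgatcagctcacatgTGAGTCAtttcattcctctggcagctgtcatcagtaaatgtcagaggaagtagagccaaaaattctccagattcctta
The HBE1 region window and the OR5AK2 window have 2 copies of the letters each, and the OR5B3 window has 1. These windows were picked because they hold the letters. Windows of the same length at Jun summits near OR5M1 in A549 (44.5-fold) and OR6Q1 in B2B (42.8-fold) held 0 copies. So did the one at OR51B5, and these are not printed. The OR5M1 summit was stronger than the HBE1 region summit in A549 (40.9-fold) and weaker than the OR5AK2 summit (56.1-fold). The OR6Q1 summit was stronger than the OR5B3 summit in B2B (32.6-fold).

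Peaks at OR start sites were rare in every list. A gene was counted when a peak overlapped the 1 kb on either side of any of its annotated start sites. Of the 172 OR genes, 3 had a peak of any of the 16 lists (1.74%, Wilson 95% interval 0.595 to 5.00), against 914 of the 1145 other coding genes (79.8%, 77.4 to 82.0). Over all coding genes of the chromosome the share was 69.6%. An OR gene had a start peak in a median of 0 lists and at most 5, and another coding gene in a median of 8 lists and at most 16.

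No OR start had pol II, the enzyme that transcribes coding genes, in either line. The count was 0 of 172 in A549, where 58.2% of all coding genes of the chromosome had a pol II peak, and 0 of 172 in B2B, where 42.8% had one. Taking 3 counts as the limit, a count of 0 of 172 allows a share of up to 1.74%. Among the other coding genes the pol II shares were 66.9% in A549 and 49.3% in B2B.

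Histone marks of active chromatin were found at 2 OR starts. H3K4me3 was present at 2 OR genes in A549 (1.16%), with 62.4% of all coding genes, and at 1 in B2B (0.581%), with 52.8% of all. H3K27ac was present at 1 OR gene in A549, with 62.9% of all coding genes, and at 0 of 172 in B2B, with 54.5% of all. The Mediator subunit Med1, which joins enhancers to the polymerase, was at 0 of 172 OR starts in A549 and in B2B, with 43.4% and 51.6% of all coding genes.

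The AP-1 proteins were at a single OR start. In A549, JunB, Jun and JunD each gave 0 of 172, with 24.3%, 28.8% and 14.4% of all coding genes. In B2B, Jun gave 1 of 172, with 15.7% of all coding genes, and JunB gave 0 of 172, with 3.42% of all. The B2B JunD list gave 0 of 172, with 1.52% of all coding genes. For B2B JunD the difference was not detectable at this depth, since the 1.75% of other genes is about the limit that 0 of 172 allows.

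CTCF was at 2 OR starts in B2B (1.16%), with 35.2% of all coding genes, and Rad21 was at the same 2, with 55.2% of all. Outside B2B JunD, the intervals of the OR genes and of the other coding genes stood apart in 15 of the 16 lists.

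**Figure D1:**
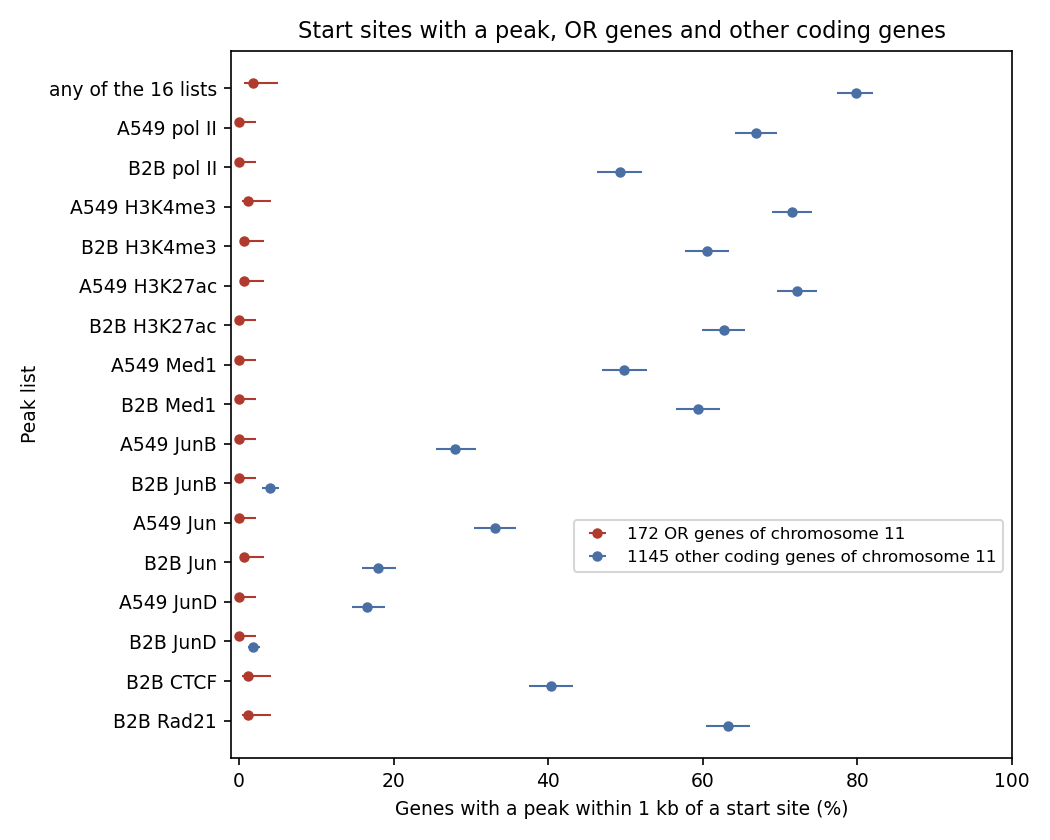
Share of genes with a peak within 1 kb of a start site (horizontal axis, percent) in each peak list and in any list (vertical axis), for the 172 OR genes in red and the 1145 other coding genes of chromosome 11 in blue. Points are shares and bars are Wilson 95% intervals, and the OR points stay between 0 and 1.74% while those of the other genes run from 1.75% to 79.8%.

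Each OR gene with a start peak belongs to class I and lies in the cluster around the beta-globin genes. OR52N2 (ENSG00000180988.3, chr11:5808924-5821483 in hg38, plus strand) lies inside the annotated span of TRIM5, a gene of the opposite strand that encodes an antiviral protein. It had peaks in 5 lists. H3K4me3 was 34.1-fold enriched there in A549, above 78.0% of the peaks of that list, and 5.67-fold in B2B, above 82.2% of its list. H3K27ac was 8.90-fold enriched in A549 and had no peak in B2B. The B2B CTCF peak at this start was 27.6-fold enriched with its summit 290 bp upstream, and the Rad21 peak was 7.60-fold with its summit 303 bp upstream. The H3K4me3 peak spanned 850 bp in A549 and 514 bp in B2B and covered the start in each. Pol II, Med1 and the AP-1 proteins had no peak within 1 kb of it.

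OR51D1 (ENSG00000197428.3, chr11:4637477-4643060, plus strand) had peaks in 3 lists, all upstream of the start. The B2B CTCF peak was 35.9-fold enriched, higher than 93.6% of all CTCF peaks, with its summit 392 bp upstream. Rad21 was 6.89-fold enriched at a summit 327 bp upstream. The A549 H3K4me3 peak was 6.22-fold enriched, higher than 33.9% of its list, and no H3K4me3 peak was listed there in B2B. OR51D1 and OR52N2 thus had CTCF with Rad21 in the same short window, on the sequences shown above.

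OR51B5 (ENSG00000167355.8, chr11:5303444-5505652, minus strand) had 1 peak, of Jun in B2B, 8.88-fold enriched and 160 bp upstream of an internal start site at position 5343524. At the gene's own 5′ end there was none. Enrichment at these OR starts was read from peaks of pooled replicates, so no error can be attached to any of these folds.

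The OR starts with H3K4me3 stood out in base composition, a feature the rule did not use. In hg38, the 300 bases at the gene's 5′ end (250 before and 50 after) held a median of 1 CpG over the 172 OR genes and 17 over the 1145 other coding genes. Of the OR genes, 168 held fewer than 10 CpG and 4 held 10 or more. Those 4 were OR56A3 with 21, OR10Q1 with 18, OR52N2 with 14 and OR51D1 with 10. The count for OR56A3 depends on the start model. Its GENCODE 5′ end at position 5938751 lies beside the TRIM5 5′ end at 5938619, and its RefSeq promoter window held 1 CpG. H3K4me3 was found at OR52N2 and OR51D1 and at no OR gene with fewer than 10. At OR56A3 and OR10Q1 none of the 16 lists had a peak in the window. This relation was noticed after the values were seen, over 4 genes, and is given as a description.

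At CpG counts below 10, a smaller share of OR genes than other coding genes had a peak. Of the other coding genes with 0 or 1 CpG, 21 of 87 had a peak at the 5′ end (24.1%, interval 16.4 to 34.1), against 0 of 103 OR genes (interval 0 to 3.60). With 2 to 4 CpG, 45 of 154 other genes had a peak (29.2%, 22.6 to 36.8), against 0 of 60 OR genes (0 to 6.02). With 5 to 9 CpG the counts were 103 of 181 and 0 of 5, and the intervals of 49.6 to 63.9 and 0 to 43.4 stood apart narrowly. With 10 to 14 CpG, 2 of 2 OR genes, OR52N2 and OR51D1, had a peak (interval 34.2 to 100). Of the other genes, 73 of 93 had one (78.5%, 69.1 to 85.6). These intervals overlap, so no order can be read at these counts. With 15 or more CpG, 600 of 630 other genes had a peak (95.2%, 93.3 to 96.6), against 0 of 2 OR genes (0 to 65.8).

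**Figure D2:**
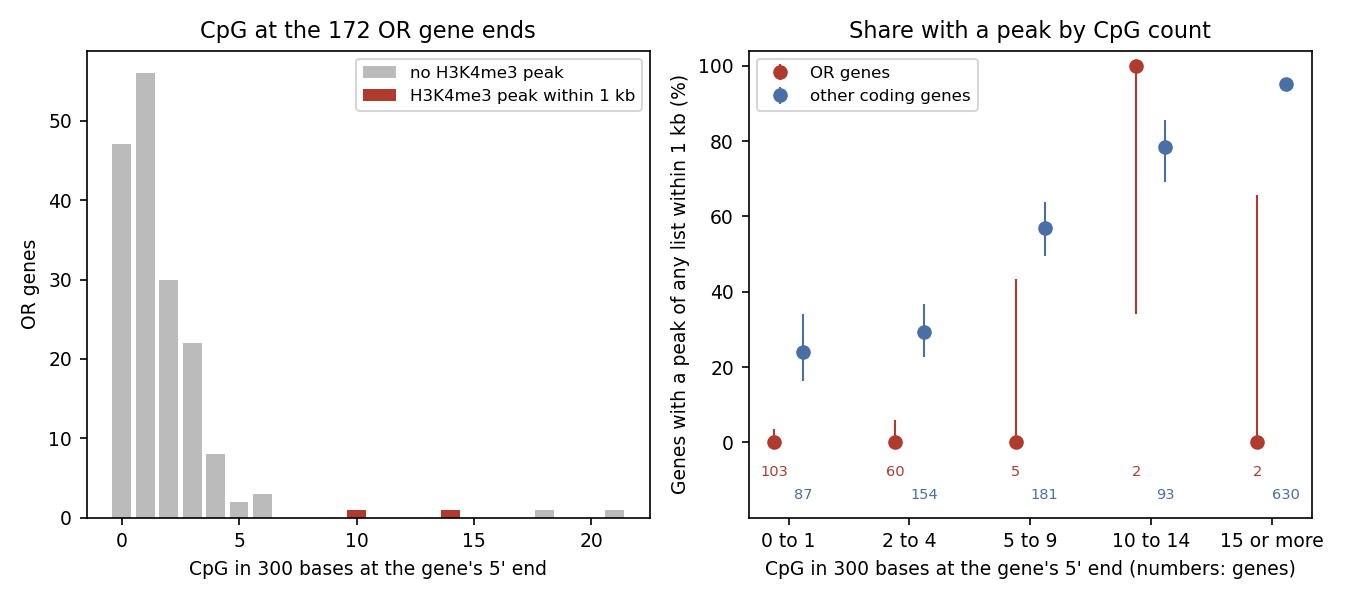
Left, number of OR genes (vertical axis) by the number of CpG in 300 bases at the gene's 5′ end (horizontal axis), with genes that have an H3K4me3 peak of either line within 1 kb in red. Right, share of genes with a peak of any list within 1 kb of that end by CpG count, with Wilson 95% intervals and the number of genes under each point. The 2 red genes, with 10 and 14 CpG, sit in the sparse right tail, and the OR shares are 0 in the other bins.

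Of the 172 OR genes, 133 matched a RefSeq promoter, and their composition was compared with 803 other coding genes of chromosome 11 and with all 27305 promoters of the table. Median GC content was 37.0% in OR promoters, 62.7% in the other genes of the chromosome and 58.3% in the whole table. No CpG at all was found in 27.1% of OR promoters, against 1.99% and 4.16%. The TATA-like letters TATAAA, searched on both strands, stood in 35.3% of OR promoters, 9.09% of the other promoters of the chromosome and 11.95% of all.

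The letters of factors known from OR gene choice were also counted on both strands. TAATTA, the core that homeodomain factors such as LHX2 bind, stood in 23.3% of OR promoters, 3.11% of the others on the chromosome and 4.98% of all. TATAAA and TAATTA are rich in A and T, as OR promoters are. CCCNNGGGA, a core of EBF factors, stood in 4.51% of OR promoters, 11.5% of the others and 8.84% of all. The AP-1 letters TGACTCA or TGAGTCA stood in 3.01% of OR promoters, 3.74% of the others and 4.92% of all.

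OR gene models limit what a start window can show. In 80 of the 172 OR genes (46.5%) every annotated start was the first base of the start codon, so an untranslated first exon may lie outside the window. In the matched genes, 0 of 133 RefSeq starts lay over 1 kb from every GENCODE start. Sequence repeated elsewhere in the genome, where short reads cannot be placed with certainty, was measured as 50-base words present more than once. Repeated words took a median of 0% of the windows of OR genes and of other genes, and reached at most 32.6% for an OR gene. Windows more than 50% repeated were found for 0 OR genes and 16 other genes.

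The nearest peak of any list lay a median of 25.4 kb from an OR start, with a range of 0 to 342.5 kb, and the median was 0 kb for other coding genes. Within 3 kb there was a peak for 10 of the 172 OR genes, and within 10 kb for 39 (22.7%), against 90.9% of other coding genes within 10 kb. Within 100 kb, 146 OR genes had a peak (84.9%), against 99.6% of the others. OR4A16 (ENSG00000181961.5) was the most remote at 342.5 kb, followed by its neighbour OR4A15 at 317.8 kb and by OR4C46 at 251.2 kb.

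The 7 OR genes with their nearest peak between 1 and 3 kb had CTCF, AP-1 proteins or H3K4me3 there, and none had pol II. OR8J3 had A549 H3K4me3 at 1.34 kb, and OR52K1 had A549 Jun at 1.39 kb and A549 JunB at 1.41 kb. OR4S1, OR52E5 and OR51M1 had B2B CTCF alone, at 1.63, 1.70 and 2.72 kb. OR52H1 had Jun of both lines and A549 JunB at 2.14 to 2.17 kb, and OR52J3 had A549 Jun at 2.86 kb.

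**Figure D3:**
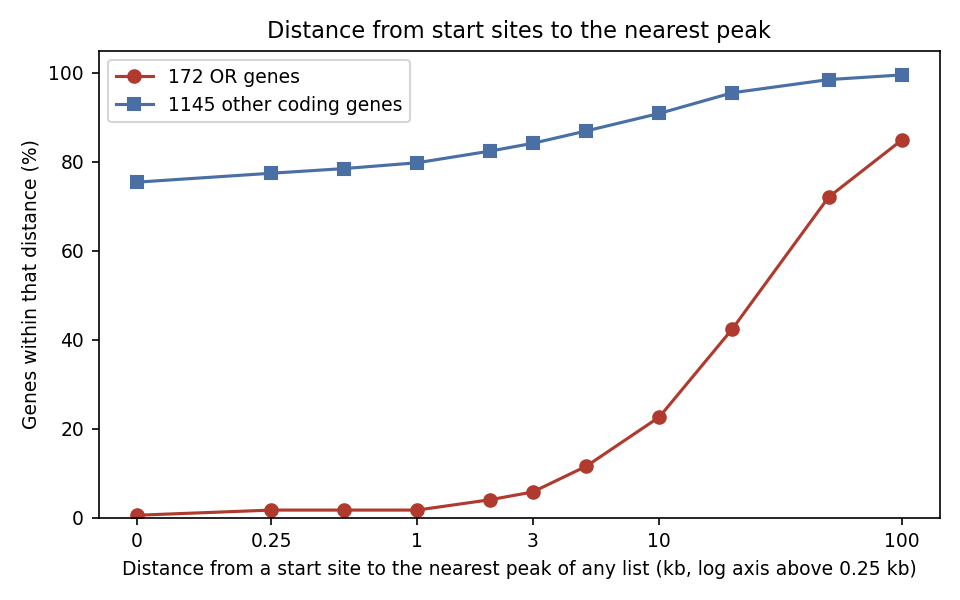
Cumulative share of genes (vertical axis, percent) with a peak of any list within a given distance of a start site (horizontal axis, kb, logarithmic above 0.25 kb), for 172 OR genes in red and 1145 other coding genes in blue. The OR curve stays at or below 1.74% to 1 kb and reaches 22.7% at 10 kb, while the other genes start at 75.5%.

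By list, the median distance from an OR start ranged from 51.3 kb for B2B CTCF to 476.8 kb for B2B JunD. Pol II lay a median of 159.2 kb away in A549 and 244.5 kb away in B2B, and H3K4me3 107.6 kb and 183.8 kb away. Over the 7 targets profiled in both lines, the nearest A549 peak was a median of 45.9 kb and the nearest B2B peak 83.3 kb from an OR start. The A549 peak was the nearer of the pair for 119 OR genes and the B2B peak for 52. Lists differ in length and neighbouring OR genes share their nearest peak, so these counts are descriptions.

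Peaks lay inside the body of few OR genes. A peak of any list overlapped 9 of the 172 OR gene bodies (5.23%), 979 of the 1145 other coding genes (85.5%) and 75% of all coding genes of the chromosome. Among bodies of at most 2 kb the counts were 0 of 97 for OR genes and 24 of 55 for other coding genes. The bodies with pol II were those of OR51B5 and OR9Q1, both in B2B and both long gene models, and no OR gene body had pol II in A549. Among other coding genes, 70.8% had pol II in the body in A549 and 50.2% in B2B.

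Chained where neighbours lie within 500 kb, with at least 3 genes, 171 of the OR genes formed 10 clusters, and OR2AT4 stood alone. The clusters covered 5.91 Mb and held 393 of the 24196 peaks, counted by summit. That was 66.5 peaks per Mb, against 185.1 per Mb in the rest of the chromosome, a ratio of 0.359. Each list was sparser inside the clusters, with ratios from 0.201 for B2B H3K27ac to 0.627 for A549 Jun. Among the shared targets the ratios for A549 and B2B were 0.234 and 0.263 for pol II, 0.485 and 0.379 for H3K4me3, and 0.324 and 0.201 for H3K27ac. With other coding genes and 5 kb around each left out, the clusters held 53.6 peaks per Mb. No such trimmed density was computed for the rest of the chromosome.

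**Figure D4:**
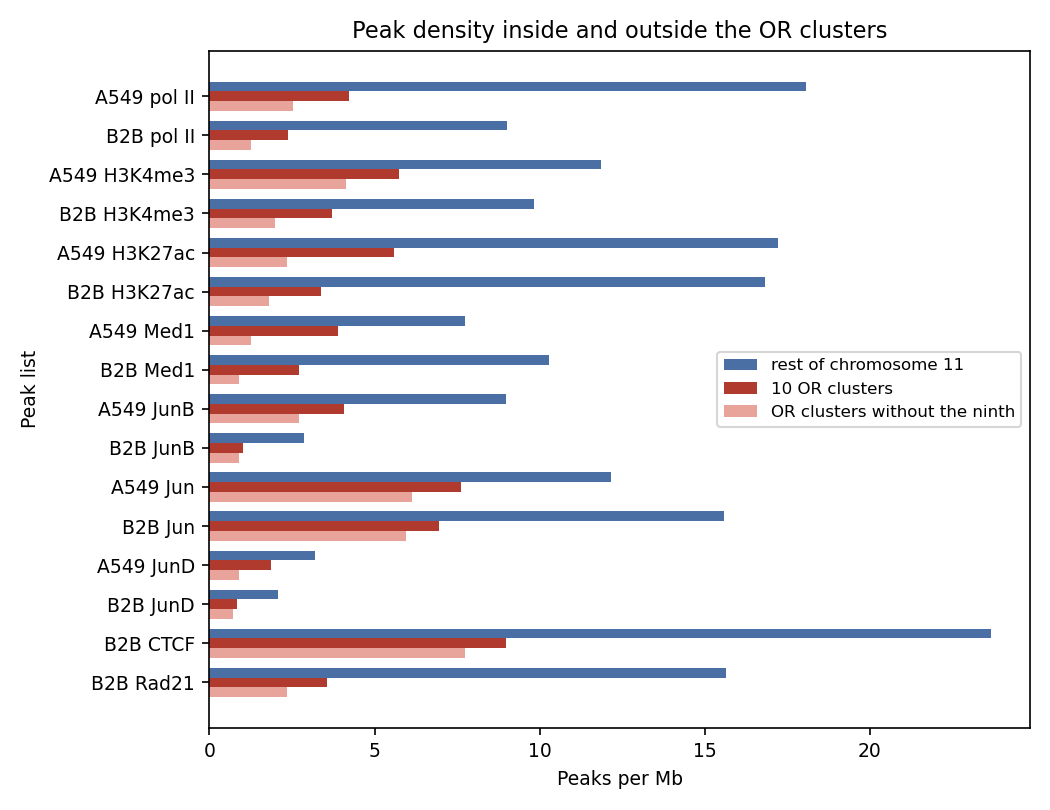
Peaks per Mb (horizontal axis) in each list (vertical axis) for the rest of chromosome 11, the 10 OR clusters and the clusters without the ninth. Bars start at 0 and have no error bar because replicates were pooled, and in each list the OR clusters lie below the rest.

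Positions within 1 kb of a peak of any list made up 4.84% of the bases in the clusters, 4.15% of those away from other coding genes, and 12.4% of the rest of the chromosome. The rest of the chromosome kept its coding genes, so the 4.15% and the 12.4% are not like for like. The OR start share of 1.74% (interval 0.595 to 5.00) can be read beside the 4.84%, which is inside that interval. The 79.8% of other coding genes stands beside 12.4% for the sequence they lie in.

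The clusters differed widely. The class I cluster, with 55 OR genes at chr11:4367263-6200186, had 132 peaks, or 72.0 per Mb, and its OR starts lay a median of 12.3 kb from a peak. The largest class II cluster, with 48 OR genes at chr11:55343201-56989843, had 42 peaks, or 25.5 per Mb, and a median distance of 79.7 kb. Within 10 kb of a peak were 21 of the 55 class I genes (38.2%) and 18 of the 117 class II genes (15.4%). A cluster of 3 OR genes at chr11:54603069-54707902 had 0 peaks in all 16 lists. Other small clusters, of 8, 7 and 3 genes, had 1, 3 and 1 peaks.

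The cluster at chr11:59358895-59713845 had 151 of the 393 peaks on 8 OR genes, or 425.4 per Mb. Without it, the other clusters held 43.6 peaks per Mb and the ratio to the rest of the chromosome was 0.235. It also covers OSBP, a sterol-binding protein gene, and PATL1, a gene of messenger RNA decay, each with start peaks in 12 lists. Of STX3, a gene of membrane fusion, only the 5′ end lies inside the cluster. The start peaks of STX3, in 15 lists, lie beyond the end of the cluster. A run of 82 peaks from 15 lists lay at chr11:59544940-59566751, over the long noncoding RNA gene LINC02739 and its unnamed neighbours and 33.4 kb from the start of OR4D9. Its strongest A549 H3K27ac peak was 107.4-fold enriched, above 97.4% of that list, and its strongest B2B H3K4me3 peak was 19.4-fold, above 99.4% of its list. No OR gene of that cluster had a start peak, and their distances to the nearest peak ran from 3.59 to 65.6 kb.

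**Figure D5:**
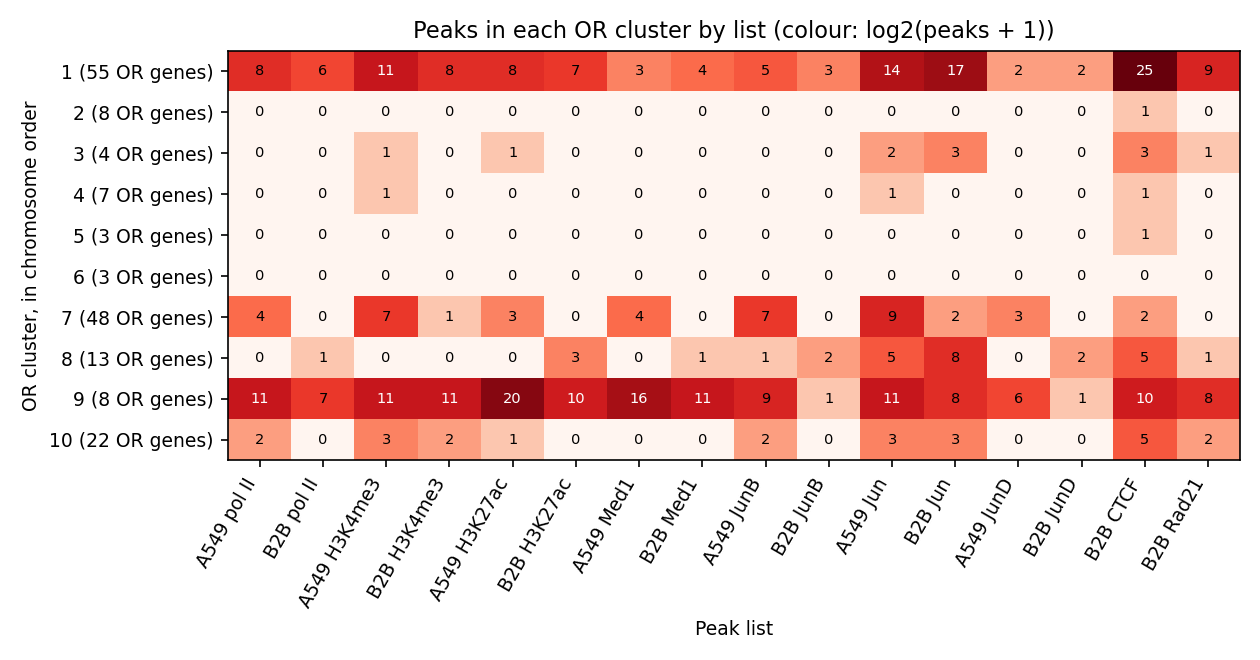
Number of peaks, written in each cell, in each of the 10 OR clusters (vertical axis, in chromosome order, with the number of OR genes) and each peak list (horizontal axis). Darker red is a higher log2(peaks + 1), and the first and ninth clusters hold most of the peaks while the sixth has 0 in every list.

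Peaks in the clusters were grouped where they chained within 5 kb, which gave 89 sites. Of these, 43 had peaks of a single list, among them 17 of CTCF and 16 of Jun. A549 lists alone gave 23 sites and B2B lists alone 36, but CTCF and Rad21, profiled in B2B only, were the sole peaks at 22 of the 89 sites. Over the 7 shared targets the order turned, with 27 sites in A549 only and 14 in B2B only of 67. There were 17 sites with 5 or more lists, and 6 of those lay away from other coding genes. The sites described next were chosen after their values were seen.

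Inside the long annotated spans of HBG2 and HBE1, in the stretch where the beta-globin locus control region lies, a site at chr11:5280545-5281095 had peaks in 10 lists, 20.9 kb from the start of OR51B4. Jun was 40.9-fold enriched there in A549 and 54.5-fold in B2B, above 96.0% and 99.4% of the peaks of those lists. JunB was 31.5-fold enriched in A549 and 20.7-fold in B2B, and JunD 7.05-fold and 9.58-fold. Pol II had a peak in A549 only, at 8.68-fold, and neither line had H3K4me3 or H3K27ac there. The A549 Jun window printed above holds its 2 copies of TGACTCA 3 bases apart. The beta-globin genes themselves, HBB, HBD, HBG1, HBG2 and HBE1, which encode chains of haemoglobin, had a start peak in 0 of 5 cases.

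A site inside the long OR51B5 gene model, at chr11:5364142-5370262, had 13 peaks of 8 B2B lists and 0 of A549. Jun was 41.1-fold enriched there, CTCF 25.1-fold, Rad21 17.5-fold and pol II 8.60-fold. A site in the OR9Q1 body, at chr11:58058101-58062177, had 12 B2B peaks of 6 lists and 1 A549 peak, of Jun. B2B Jun was 42.8-fold enriched at it and B2B H3K27ac 13.7-fold, against 7.48-fold for A549 Jun.

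The reverse was seen in the largest class II cluster. A site at chr11:56906619-56911648, over the FADS2B pseudogene and 77.3 kb from the start of OR5AK2, had 18 peaks in all 7 A549 lists and 0 in B2B. Pol II was 49.96-fold enriched there, Jun 28.4-fold and H3K27ac 7.23-fold. The strongest A549 Jun peak of the clusters away from other coding genes stood farther along, 55.9 kb from OR5AK2, at 56.1-fold. In that cluster A549 had 4 pol II, 7 JunB and 9 Jun peaks, and B2B had 0, 0 and 2. The nearest A549 peak was closer than the nearest B2B peak for 47 of its 48 OR genes over the 7 shared targets, with medians of 79.7 and 456.2 kb, and those genes share the same few peaks.

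Over all clusters the A549 and B2B lists held 25 and 14 pol II peaks, 34 and 22 H3K4me3 peaks, 33 and 20 H3K27ac peaks, and 23 and 16 Med1 peaks. JunB gave 24 and 6, Jun 45 and 41, and JunD 11 and 5. Of the 45 A549 Jun peaks, 20 overlapped a B2B Jun peak, near the share of 46.8% for all A549 Jun peaks of the chromosome. On the whole chromosome A549 and B2B had 2350 and 1173 pol II peaks, 1561 and 1285 of H3K4me3, 2249 and 2184 of H3K27ac, and 1020 and 1338 of Med1. There were 1178 and 376 of JunB, 1608 and 2047 of Jun, and 424 and 272 of JunD. Med1 and Jun thus had more peaks in A549 inside the clusters and fewer on the chromosome. Without the ninth cluster, A549 and B2B had 7 and 5 Med1 peaks and 34 and 33 Jun peaks, which are nearly equal.

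Jun summits in the clusters carried AP-1 letters about as often as elsewhere. The letters stood within 50 bp of the summit of 17 of 45 A549 Jun peaks (37.8%, 25.1 to 52.4), against 45.3% in the rest of the chromosome. For B2B Jun the share was 16 of 41 (39.02%, 25.7 to 54.3), against 42.7%. Adjoining windows of the same length over the whole chromosome held them in 1.48% of cases. The CTCF core stood at 30 of 53 CTCF summits in the clusters (56.6%, 43.3 to 69.0), at 42.7% of those elsewhere and in 4.53% of all windows. Rad21 overlapped 15 of the 53 CTCF peaks in the clusters (28.3%, 18.0 to 41.6) and 38.7% of those elsewhere (37.0 to 40.5), a difference within the interval for the clusters.

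The clusters overlap 30 other coding genes, and 12 of them had a start peak, against 79.8% of all other coding genes of the chromosome. All annotated starts were counted, also those outside a cluster, as for STX3. Overlapping gene models such as TRIM6 and TRIM6-TRIM34 can share a peak. TRIM5 had start peaks in 14 lists, TRIM6 in 8, TRIM68 in 7 and TRIM21 in 6. These tripartite motif genes act in innate immunity or protein turnover, and their starts lay in the same cluster as the 3 OR genes with peaks. The start peaks of TRIM5 lie at internal starts, and no list had a peak within 1 kb of the TRIM5 5′ end. The 6 genes annotated as coding that carry OR pseudogene symbols had none. Over the coding genes of all chromosomes, 79.7% had a start peak of any list.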

How the data were processed

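ChIP-seq peaks of 16 antibody groups were analysed. As the study's methods describe, reads were aligned by the authors to hg38 with Bowtie2 2.4.4 and stripped of duplicates with custom code. The 2 replicates of each group were then merged, reads were scaled with SAMtools 1.13, and peaks were called with MACS2 2.2.7.1. Its options and its control are not given in the sources used here. The authors deposited, per peak, a score (10 times −log10 q, rounded down), a fold enrichment ratio over local background, −log10 p and −log10 q. The lowest −log10 q was 2.01. Folds and −log10 q served for ranking and filtering inside each list. Input samples were not analysed here.

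Gene positions came from GENCODE release 44 and promoters from RefSeq (GRCh38.p14). The OR genes and the gene lists were chosen with earlier results of these data known. Named genes were the OR genes with start peaks in the most lists, the strongest OR peaks, the beta-globin, olfactory signalling and OR choice lists, and the other coding genes of the clusters with peaks in the most lists. Positions count from 1. A peak near a start overlapped the 1 kb on either side of any annotated start. Densities count summits and leave out assembly gaps. Intervals were Wilson 95% intervals (SciPy 1.17.1) in Python 3.11.15 with NumPy 2.4.6 and pandas 2.3.3, and plots used Matplotlib 3.10.9. The overlap functions were tested on simulated data against bedtools 2.31.1. The read depth of the lists is unknown. Windows of 250 bp, 3 kb and 10 kb, a −log10 q of at least 5, other start sites and other cluster definitions were tried as alternatives.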

Additional observations from a re-analysis of the deposited data

How the results depend on the processing

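Of 109 alternative values, 102 stayed within 1.5 times the reported value or, for shares by list, within its interval, and 7 moved. Shares by list made up 80 of the 109, and 79 of these stayed. Those shares rest on few genes and wide intervals. For A549 Jun, 0 of 172 had an interval up to 2.18%, so the 3 genes found with a window of 3 kb counted as unchanged. The 79 therefore say little about stability. The share of OR genes with a peak near a start was 1.74% and became 5.81% with a window of 3 kb, 22.7% with a window of 10 kb (chosen after seeing the data) and 0.752% at RefSeq starts (also chosen after), where 1 of the 133 matched genes had a peak and OR51D1 and OR51B5, not in the RefSeq table, could not be counted. For other coding genes the share was 40.0% when limited to the 30 that overlap the clusters. For B2B Jun the share of OR genes was 0% at the gene's 5′ end alone, because its single peak lies at an internal start. Without the cluster with the most peaks, left out after seeing the data, the density in the clusters was 43.6 peaks per Mb and the ratio 0.235. Chaining at 200 kb or 1 Mb, a −log10 q of at least 5, leaving out other coding genes, and leaving out the Med1 lists and the B2B JunD list moved no density or ratio by over 1.5 times. No paired analysis was possible because each list pools both replicates, and no replicate could be left out. Peaks alone cannot separate a silent gene from weak signal below the caller's limit.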

Other observations

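OR pseudogenes of chromosome 11, which the rule leaves out, had start peaks nearly as seldom as the OR genes. Of 194, 4 had a peak of any list within 1 kb (2.06%, Wilson 95% interval 0.805 to 5.18): OR55B1P, OR51AB1P, OR8R1P and OR8B9P.

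Genes that serve OR signalling in the sensory neuron lie mostly on other chromosomes, and 6 of 11 had a start peak (54.5%). Over the coding genes of all chromosomes the share was 79.7%, although some lists stop before the last chromosomes. GNAL, the olfactory G protein subunit, had start peaks in 13 lists and CNGA4, a subunit of the olfactory ion channel, in 11. ANO2, a chloride channel, had them in 8, and ADCY3, the olfactory adenylyl cyclase, in 7. REEP1, a receptor trafficking protein, had them in 5 and CNGB1 in 1. OMP, a marker of mature olfactory neurons, CNGA2, STOML3, RTP1 and RTP2 had none. A peak within 1 kb can also belong to a neighbouring gene. The 5′ end of CNGA4, at chr11:6234765, lies beside that of FHIP1B, at chr11:6234711. The peaks there cannot be assigned to CNGA4 alone.

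Regulators of OR choice had start peaks in 6 of 6 cases, where the common state of coding genes is also to have one (79.7%): KDM1A, a histone demethylase, in 11 lists, LDB1 and ATF5 in 10 each, EBF1 in 6, LHX2 in 4 and EMX2 in 2. EMX2 had peaks in A549 lists alone, of H3K4me3 and H3K27ac. EBF1 and LHX2 had A549 pol II, H3K4me3 and H3K27ac peaks, and in B2B a Rad21 peak.

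Other gene families of chromosome 11, added after the data had been seen, lay between the OR genes and the rest. Members were taken by symbol over the whole chromosome, clustered or not, and the families are small. Start peaks were found at 4 of 16 MS4A genes (25%), at 2 of 8 MRGPR receptor genes (25%) and at 3 of 11 KRTAP5 keratin-associated genes (27.3%). Of the chromosome's TRIM genes, 10 of 22 had one (45.5%), and 69.6% of all coding genes of the chromosome did. No member of these families other than TRIM genes had start peaks in more than 3 lists.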
